A study of Mus musculus with 18 samples.

Results

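Bile acids are made from cholesterol in hepatocytes by 2 connected enzyme routes. The classic pathway opens with CYP7A1, the rate-limiting cholesterol 7α-hydroxylase, and uses the 12α-hydroxylase CYP8B1 to direct part of the flow to cholic acid. The alternative pathway opens with the mitochondrial sterol 27-hydroxylase CYP27A1 and continues with the oxysterol 7α-hydroxylase CYP7B1. Both then share enzymes that rearrange the sterol ring (HSD3B7, AKR1D1), shorten the side chain in peroxisomes (AMACR, ACOX2) and join the product to coenzyme A and to taurine or glycine (SLC27A5, BAAT). Inflammation of the liver has long been known to lower bile acid synthesis, and Cyp7a1 is the member best known to respond.

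The 10 genes described here, Cyp7a1, Cyp8b1, Cyp27a1, Cyp7b1, Hsd3b7, Akr1d1, Amacr, Acox2, Slc27a5 and Baat, were taken by symbol from the gene count tables of 3 library kits. They are 10 of 21018 genes listed in at least 1 table, and all 10 were listed in all 3. The libraries came from livers of 6 male C57/B6J mice aged 12 weeks, perfused with PBS and collected 4 h after an intraperitoneal injection. In this acute model, 3 mice (labelled ILB_9579, ILB_9582 and ILB_9583) received 20 µg/kg of IL-1β, an inflammatory cytokine, and 3 mice (labelled UNT_9574, UNT_9575 and UNT_9576) received saline. RNA of every mouse was prepared with the stranded Pico kit for total RNA (1.7 to 2.6 ng), the unstranded poly(A) kit V4 (0.8 to 1.3 ng) and the stranded poly(A) kit TruSeq (200 ng), which gave 18 libraries. The 3 kits therefore measured the same 6 mice, and a result seen in all kits still rests on 3 mice against 3.

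Total gene counts per Pico library ran from 4024632 to 4134070. Those of V4 lay between 12013453 and 12352473, and those of TruSeq between 12348864 and 12858237. The labels were borne out by their markers. All 10 hepatocyte markers examined, albumin (Alb) among them, were listed in every kit, and 8 of 8 acute-phase genes were higher after IL-1β in each. The summed level of the hepatocyte markers was lower after IL-1β, at 58874 to 66318 CPM (counts scaled to the library total) against 71297 to 83043 in the saline libraries of Pico. V4 gave 37273 to 44061 against 46999.5 to 61522, and TruSeq 71854.5 to 75443 against 93671 to 112434. Of the 10 markers, Pico called 7 lower and 2 higher, V4 3 lower and 0 higher, and TruSeq 5 lower and 2 higher, and Alb made up from 37.7% to 75.2% of a library's sum. Without Alb, a sum chosen after seeing the data, the treatments stood apart in Pico (30045 to 31943 against 33083 to 34639 CPM) and overlapped in V4 (22841 to 27441 against 24630 to 38029) and TruSeq (22299 to 25686 against 25427 to 29819). Neutrophil markers were higher (5 of 5 listed in Pico, 4 of 6 for V4 and 5 of 7 for TruSeq) but summed to at most 87.9 CPM. Of the 8 examined, Mpo was listed in no kit, Ly6g in TruSeq only, and Elane in V4 and TruSeq. Neither Ly6g nor Elane was called. Summed Kupffer cell markers were lower without overlap in each kit, with 4, 2 and 5 of 8 called lower in Pico, V4 and TruSeq and sums of 103 to 140 CPM against 187 to 246 in Pico. The same held for endothelial markers (3, 2 and 5 of 6, with 172 to 206 against 289 to 322) and stellate cell markers (2, 1 and 3 of 5, with 196 to 277 against 292 to 362). Against these, the Kupffer cell marker Marco was called higher in TruSeq, at a log2 fold change of 1.30. The endothelial marker Lyve1 was called higher in Pico (1.65) and TruSeq (0.94). Of 5 cholangiocyte markers 0 were lower, and 1, 0 and 3 were higher. Over all genes, 10.8%, 7.41% and 21.8% were called lower in Pico, V4 and TruSeq, and 6.78%, 3.6% and 12.3% higher. The part of these shifts in the results on the enzymes was not tested. CPM are shares of a library, and the summed acute-phase genes rose to 25551 to 29519 CPM against 5038 to 6405 in Pico. V4 gave 68335 to 76893 against 10656 to 13422, and TruSeq 47059 to 53752 against 5804 to 7316.5. In bulk liver, fewer hepatocytes, less RNA per hepatocyte, a response of the markers themselves and a smaller share beside other RNA cannot be told apart.

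The promoters of 3 members are shown, picked by the responses described below: Cyp8b1 and Akr1d1 fell after IL-1β, and Cyp27a1, at the head of the alternative pathway, was not called. The sequences are the 250 bases before the annotated start in RefSeq on GRCm38.p6, 5′ to 3′ on the gene's strand, and 5 of the 10 members had an entry (Cyp8b1, Cyp27a1, Hsd3b7, Akr1d1 and Acox2). Capitals mark matches, on either strand, to CAAAGTCCA, a motif of the hepatocyte factor HNF4A, or to AGGTCA, a half-site of nuclear receptors, read as TGACCT on the other strand. TGANTCA, the motif of AP-1 (JUN and FOS proteins), was searched too. The motifs were chosen with the sequences in view, and a match is a description of letters only.
Cyp8b1 (chr9:121916306-121916555, minus strand): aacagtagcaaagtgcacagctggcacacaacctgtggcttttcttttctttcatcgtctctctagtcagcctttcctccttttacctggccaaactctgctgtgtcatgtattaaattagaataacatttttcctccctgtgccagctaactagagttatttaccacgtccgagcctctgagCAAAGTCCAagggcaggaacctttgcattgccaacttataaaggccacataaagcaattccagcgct
Akr1d1 (chr6:37529923-37530172, plus strand): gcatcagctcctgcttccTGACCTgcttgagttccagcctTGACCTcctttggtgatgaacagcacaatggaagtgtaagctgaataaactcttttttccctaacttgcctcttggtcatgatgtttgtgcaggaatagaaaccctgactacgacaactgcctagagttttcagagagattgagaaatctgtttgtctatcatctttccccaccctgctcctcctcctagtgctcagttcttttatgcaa
Cyp27a1 (chr1:74713285-74713534, plus strand): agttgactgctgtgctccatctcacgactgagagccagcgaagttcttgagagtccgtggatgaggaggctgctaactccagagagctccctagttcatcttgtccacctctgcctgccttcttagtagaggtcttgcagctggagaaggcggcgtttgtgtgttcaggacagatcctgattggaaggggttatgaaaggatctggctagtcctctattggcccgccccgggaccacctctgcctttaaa

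The Cyp8b1 promoter held CAAAGTCCA once, beginning 67 bases before the start, a motif found in the same window of 0.384% of 32851 RefSeq promoters. The Akr1d1 promoter held AGGTCA in 2 places, on the reverse strand, 232 and 210 bases before the start. That half-site stood in 14.0% of promoters. None of the 3 motifs was found in this window of Cyp27a1, or in that of Hsd3b7, which also fell in all 3 kits. TGANTCA, found in 6.75% of promoters, stood in the promoter of Acox2, which was called in no kit. This was 1 site, held by the overlapping windows of the 2 annotated starts of Acox2, 11 and 191 bases before them. The motifs matched in these windows did not overlap each other.

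IL-1β was compared with saline within each kit, to ask which steps of the route responded and whether the classic and alternative enzymes differed. With limma-voom on library totals, in which a call is an adjusted p (Benjamini-Hochberg, over all genes with a count in the kit) of at most 0.05, 5 of the 10 members were lower in all 3 kits: Cyp7a1, Cyp8b1, Hsd3b7, Akr1d1 and Amacr. These 5 also had no overlap between the treatments in any kit, a combination found in 5.27% of the 16184 genes tested in all 3 kits. Slc27a5 was lower and Baat higher in Pico and TruSeq, and both missed the threshold in V4. Cyp27a1, Cyp7b1 and Acox2 were called in no kit. In Pico 6 members were lower, where 10.8% of 18108 genes were, and 1 was higher, against 6.78%. V4 had 5 members lower against 7.41% of 18051 genes and 0 higher against 3.6%. TruSeq had 6 lower against 21.8% of 19424 genes and 1 higher against 12.3%.

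The same 6 members, Slc27a5 included, had every IL-1β library below every saline library in each kit, as did 18.6% (Pico), 18.6% (V4) and 27.9% (TruSeq) of all genes. Baat had every IL-1β library above every saline library in each kit, as did 12.6%, 9.09% and 17.1% of genes. The members had a median log2 fold change of -0.55 (Pico), -0.65 (V4) and -0.49 (TruSeq), beside medians over all tested genes of -0.12, -0.22 and -0.17. Scaling by TMM factors (trimmed means of log ratios between libraries) in place of library totals raised the median of all genes by 0.13, 0.17 and 0.16. Of all genes called, the share that was higher after IL-1β went with it from 38.6% to 52.9% (Pico), 32.7% to 49.7% (V4) and 36.0% to 50.9% (TruSeq). Under TMM, 5 members stayed lower and 1 higher in Pico and TruSeq, and 4 lower and 0 higher in V4.

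**Figure D1:**
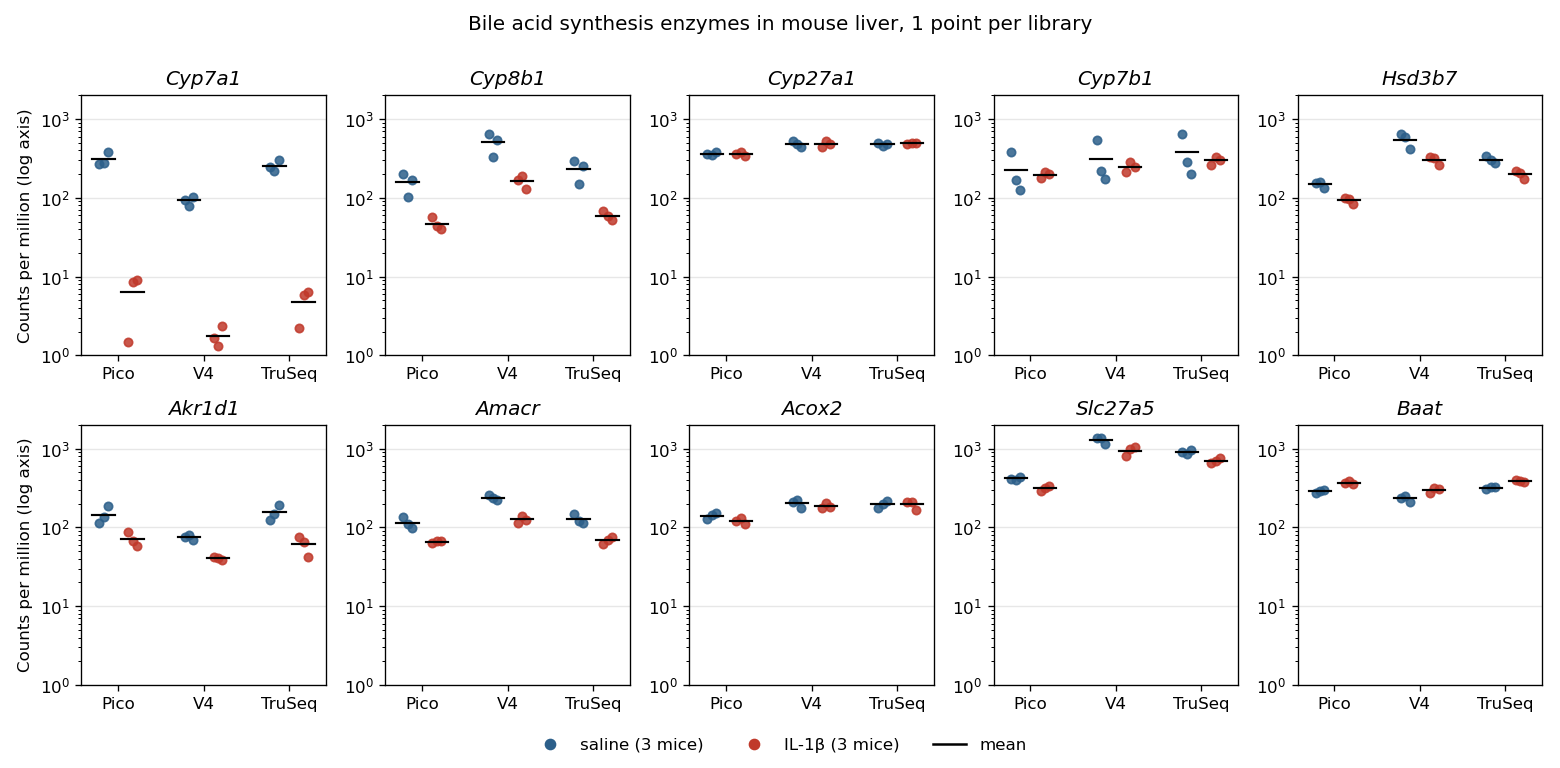
CPM (log axis) of the 10 enzymes in each of the 18 libraries, by kit, with saline in blue, IL-1β in red and a black bar at the mean of 3 mice. Cyp7a1 in the IL-1β libraries lies far under saline in every kit, while Cyp27a1 and Acox2 overlap and Baat sits higher.

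Cyp7a1 (ENSMUSG00000028240, chr4:6192759-6202780 on mm9, minus strand, 6 exons), the rate-limiting enzyme of the classic pathway, showed the widest gap among the members. In Pico it had 6, 34 and 36 counts in the IL-1β mice ILB_9579, ILB_9582 and ILB_9583, against 1101, 1145 and 1562 in the saline mice UNT_9574, UNT_9575 and UNT_9576. V4 gave 20, 16 and 28 against 1141, 961 and 1281, and TruSeq 28, 73 and 78 against 3122, 2764 and 3883. The groups did not overlap, and all 9 IL-1β libraries still held reads of the gene. Its log2 fold change was -5.93 for Pico (SE 0.49, 95% interval -6.97 to -4.90, adjusted p = 3.93e-07), -5.71 for V4 (SE 0.45, -6.70 to -4.72, adjusted p = 3.27e-05) and -5.84 for TruSeq (SE 0.31, -6.53 to -5.14, adjusted p = 2.68e-06). Mean CPM after IL-1β was 2.04% of the saline mean with Pico, 1.90% with V4 and 1.89% with TruSeq. The fitted fold, which averages on the log scale, was 61.2-fold lower in Pico, and without mouse ILB_9579, whose Pico library had 6 counts, its log2 fold change was -5.11. The spread between IL-1β mice was wide: 6.01-fold (Pico), 1.75-fold (V4) and 2.79-fold (TruSeq) between the highest and the lowest CPM.

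Cyp8b1 (ENSMUSG00000050445, chr9:121823474-121825423 on mm9, minus strand), an intronless gene whose enzyme sets the share of cholic acid, also fell in every kit.
Its Pico counts were 231, 178 and 162 in IL-1β mice ILB_9579, ILB_9582 and ILB_9583, against 825, 417 and 692 in saline mice UNT_9574, UNT_9575 and UNT_9576. V4 gave 2075, 2256 and 1577 against 7827, 3940 and 6610, and TruSeq 836, 731 and 643 against 3708, 1933 and 3235. No IL-1β library reached the lowest saline library, which was that of mouse UNT_9575 in each kit. Its log2 fold change was -1.69 for Pico (SE 0.24, adjusted p = 9.31e-05), -1.59 for V4 (SE 0.25, adjusted p = 0.00271) and -1.92 for TruSeq (SE 0.22, adjusted p = 0.00019). Mean CPM after IL-1β was 30.0%, 32.3% and 25.6% of saline, far more than was left of Cyp7a1.

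At the head of the alternative pathway no change was called. Cyp27a1 (ENSMUSG00000026170, chr1:74760148-74784464 on mm9, plus strand, 9 exons) had 1456, 1539 and 1370 Pico counts in the IL-1β mice against 1458, 1424 and 1583 in saline. V4 gave 5330, 6320 and 5780 against 6397, 5816 and 5483, and TruSeq 6010, 6160 and 6129 against 6261, 5866 and 6283. The groups overlapped in all kits. Log2 fold changes were -0.01 for Pico (95% interval -0.21 to 0.19), -0.02 for V4 (-0.31 to 0.28) and 0.04 for TruSeq (-0.15 to 0.22), with adjusted p of 0.978, 0.959 and 0.77 from limma-voom. These intervals leave room for modest changes in either direction. TMM scaling moved the 3 values to 0.13, 0.15 and 0.19, also without a call.

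Cyp7b1 (ENSMUSG00000039519, chr3:17971950-18143338 on mm9, minus strand, 6 exons), which 7α-hydroxylates oxysterols, had a fold change that moved either way as single mice were left out. In Pico the IL-1β mice had 724, 852 and 814 counts, and the saline mice UNT_9574, UNT_9575 and UNT_9576 had 1563, 694 and 522. V4 gave 2577, 3416 and 2993 against 6481, 2664 and 2141, and TruSeq 3289, 4074 and 3789 against 8160, 3674 and 2563. Mouse UNT_9574 was above every other mouse in each kit, at 3.03, 3.11 and 3.23 times the CPM of mouse UNT_9576, while the IL-1β mice lay within 1.18-, 1.34- and 1.25-fold of each other. The log2 fold change was -0.03 (95% interval -0.59 to 0.53), -0.15 (-0.90 to 0.59) and -0.16 (-0.91 to 0.60) in Pico, V4 and TruSeq, with no call. Without mouse UNT_9574 it turned positive, at 0.43, 0.33 and 0.32, with adjusted p of 0.0969, 0.368 and 0.248 from limma-voom. The lowest values with 1 mouse left out were -0.37, -0.49 and -0.53, that of Pico without mouse UNT_9576.

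**Figure D2:**
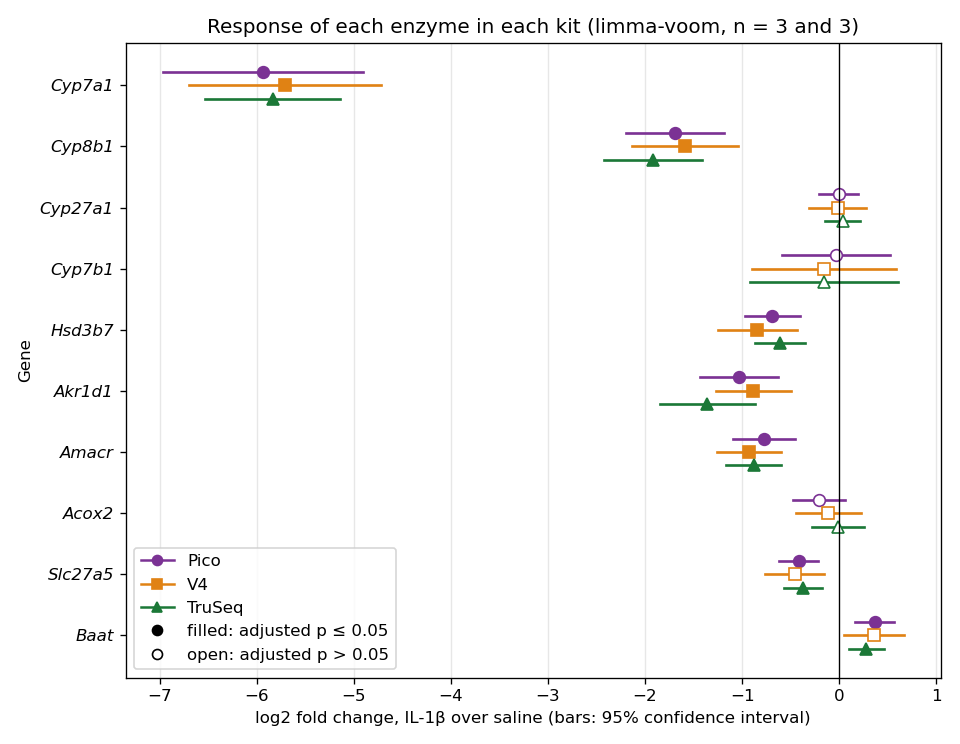
log2 fold change of IL-1β over saline for each enzyme (limma-voom, 3 mice against 3), with 95% confidence intervals, by kit; filled symbols have an adjusted p of at most 0.05. Cyp7a1 lies between -5.71 and -5.93, Cyp8b1 between -1.59 and -1.92, and the intervals of Cyp27a1, Cyp7b1 and Acox2 include 0 in every kit.

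Among the ring-modifying enzymes shared by both routes, Akr1d1 (ENSMUSG00000038641, chr6:37480173-37518815, mm9, plus strand), the Δ4-3-oxosteroid 5β-reductase, fell the furthest. Its TruSeq counts were 944, 806 and 529 after IL-1β against 1555, 1919 and 2499 in saline. Pico gave 351, 274 and 233 against 465, 562 and 775, and V4 512, 490 and 467 against 903, 981 and 849. No groups overlapped, and mouse ILB_9579 was highest and ILB_9583 lowest of the IL-1β mice in each kit. The log2 fold change was -1.03 for Pico (SE 0.19), -0.89 for V4 (SE 0.18) and -1.36 for TruSeq (SE 0.22), with adjusted p of 0.00104, 0.00915 and 0.00115.

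Hsd3b7 (ENSMUSG00000042289, chr7:134929122-134947316, mm9, plus strand), the C27 3β-hydroxysteroid dehydrogenase, had 398, 389 and 336 Pico counts after IL-1β against 635, 652 and 556. V4 gave 4005, 3858 and 3102 against 7664, 7221 and 5083, and TruSeq 2695, 2580 and 2154 against 4280, 3829 and 3567. All IL-1β libraries lay under all saline libraries. The log2 fold change was -0.69, -0.84 and -0.61 in Pico, V4 and TruSeq (adjusted p = 0.00144, 0.0153 and 0.00287). In V4 the call was lost with TMM factors (adjusted p = 0.0528) and without mouse ILB_9582, ILB_9583, UNT_9574 or UNT_9575 (adjusted p from 0.0588 to 0.0842). The annotation of Hsd3b7 shares 3523 exonic bases, on the same strand, with its neighbour Setd1a, a histone methyltransferase gene with mean counts of 70.2 (Pico), 17.5 (V4) and 247 (TruSeq), so reads there cannot be assigned with certainty. No other member shared exonic bases with another gene.

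Of the peroxisomal enzymes, Amacr (ENSMUSG00000022244, chr15:10911511-10926379, mm9, plus strand), the racemase that prepares the side chain for oxidation, fell in every kit. Its V4 counts were 1403, 1683 and 1500 after IL-1β against 3123, 2841 and 2773. Pico gave 260, 268 and 270 against 546, 456 and 402, and TruSeq 776, 863 and 935 against 1888, 1561 and 1449. The groups stood apart in each kit, with log2 fold changes of -0.78, -0.93 and -0.88 in Pico, V4 and TruSeq (adjusted p = 0.00165, 0.00316 and 0.000627). Acox2 (ENSMUSG00000021751, chr14:9058025-9091867, mm9, minus strand), the branched-chain acyl-CoA oxidase of the next step, was not called. Its groups overlapped in all kits, and it had 490, 530 and 453 Pico counts after IL-1β against 517, 595 and 624. V4 gave 2170, 2490 and 2165 against 2492, 2733 and 2211, and TruSeq 2576, 2635 and 2070 against 2247, 2554 and 2748. The log2 fold change was -0.21 for Pico (95% interval -0.48 to 0.06), -0.11 for V4 (-0.45 to 0.22) and -0.01 for TruSeq (-0.28 to 0.26).

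The conjugation enzymes moved in opposite directions in Pico and TruSeq, each by a small amount. Slc27a5 (ENSMUSG00000030382, chr7:13573695-13583541, mm9, minus strand), the bile acid-CoA ligase, had 1172, 1282 and 1350 Pico counts after IL-1β against 1688, 1656 and 1831. V4 gave 9840, 11903 and 12562 against 16514, 16697 and 14087, and TruSeq 8290, 8533 and 9366 against 11601, 10976 and 12347. No library of 1 group fell within the other. The log2 fold change was -0.42, -0.46 and -0.37 in Pico, V4 and TruSeq (adjusted p = 0.00559, 0.0533 and 0.00971). The calls in Pico and TruSeq were lost with TMM factors, edgeR and DESeq2 (adjusted p from 0.0508 to 0.155), under which the values were -0.29 in Pico and -0.21 in TruSeq.

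Baat (ENSMUSG00000039653, chr4:49502294-49519429, mm9, minus strand), which transfers taurine or glycine to the bile acid, was the only member to rise, in Pico and TruSeq. Pico gave 1469, 1579 and 1455 counts after IL-1β against 1117, 1209 and 1238 in saline. V4 gave 3372, 3781 and 3749 against 2875, 3072 and 2610, and TruSeq 4946, 4806 and 4686 against 3950, 4158 and 4153. Every IL-1β library was above every saline library of its kit. The log2 fold change was 0.36, 0.36 and 0.28 (adjusted p = 0.0132, 0.138 and 0.0236). The call was lost without mouse ILB_9582 or UNT_9574 in Pico, and without ILB_9579, ILB_9582 or UNT_9574 in TruSeq (adjusted p from 0.052 to 0.0726), and in V4 it was gained with DESeq2, at 0.53 (adjusted p = 0.0179).

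A ratio of 2 genes within a library does not depend on the library's total, so the classic enzymes were set against the alternative ones as log2 ratios of reads per length of exon, with 0.5 reads added. In saline Pico libraries the Cyp7a1 to Cyp27a1 ratio was 0.342, 0.364 and 0.447, and after IL-1β it was 0.00202, 0.0102 and 0.0121. In V4 the saline ratios were 0.0748 to 0.106 and the IL-1β ratios 0.00118 to 0.00223, and in TruSeq 0.213 to 0.280 and 0.00215 to 0.0058. The ratio was thus 60.8-, 51.8- and 58.5-fold lower after IL-1β. Against Cyp7b1, Cyp7a1 was 59.8-, 47.0- and 51.3-fold lower in the same order, although the saline ratios spread more widely, from 0.366 to 1.55 in Pico. In Pico the difference in log2 ratio without mouse ILB_9579 was -5.11 against Cyp27a1 and -5.15 against Cyp7b1. With 20 reads added in place of 0.5, the Cyp7a1 differences came to -4.86 (Pico), -4.77 (V4) and -5.41 (TruSeq) against Cyp27a1 and to -4.83, -4.63 and -5.22 against Cyp7b1.

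Cyp8b1 shifted in the same direction by less. Its ratio to Cyp27a1 in Pico was 0.284 to 0.549 in saline and 0.112 to 0.154 after IL-1β. V4 gave 0.657 to 1.19 and 0.265 to 0.377, and TruSeq 0.319 to 0.574 and 0.102 to 0.135. That is 3.21-, 2.98- and 3.87-fold lower, and against Cyp7b1 it was 3.16-, 2.70- and 3.39-fold lower. None of the 12 ratios overlapped between the groups. Each had p = 0.1 in a two-sided exact permutation test, the smallest that 3 mice against 3 allow, and 0.1 after adjustment over the 12, so no ratio could pass 0.05.

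**Figure D3:**
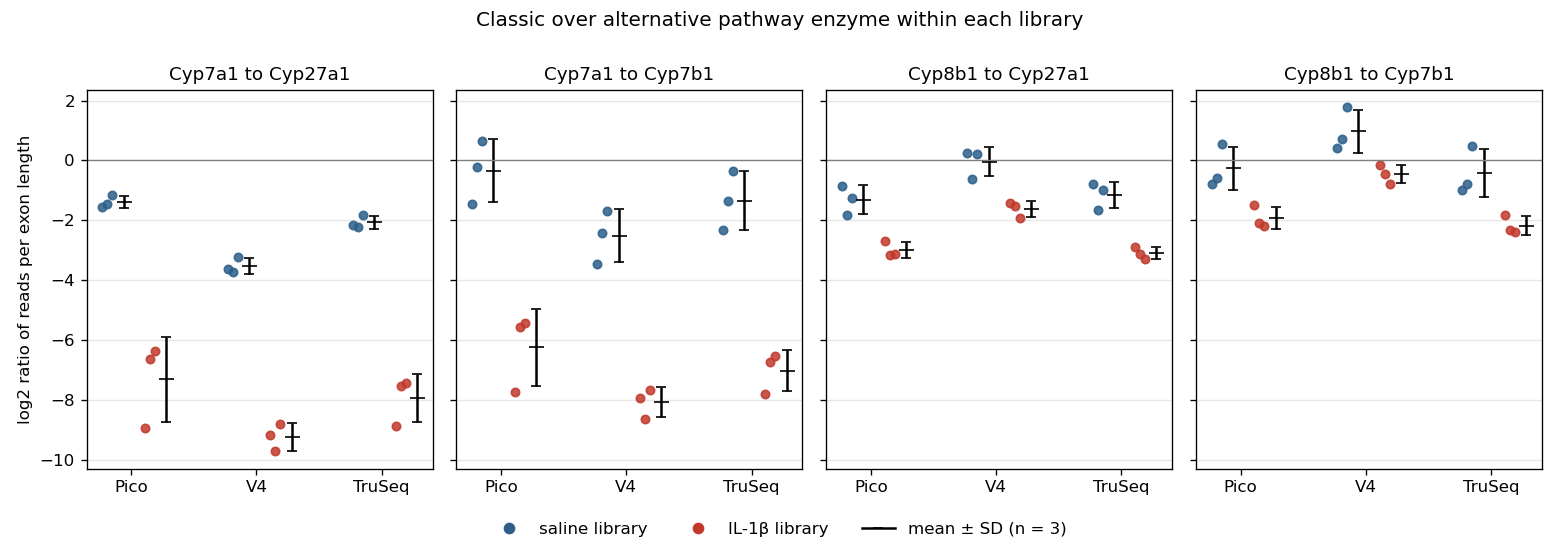
log2 ratio of a classic to an alternative enzyme (reads per exon length) in each library, by kit, with saline in blue, IL-1β in red and the mean ± SD of 3 mice in black. The groups stand apart in every panel, with differences in mean log2 ratio between -5.56 and -5.93 for Cyp7a1 and between -1.43 and -1.95 for Cyp8b1.

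Levels were then compared between the enzymes as CPM per kilobase of exon, which corrects for gene length but not for the kit. The order of the genes differed between kits: Cyp8b1 stood 2nd of 10 in saline V4 libraries and 5th in those of Pico and TruSeq. In saline TruSeq libraries the order ran from Slc27a5 at 372.8 ± 21.1 (SD, n = 3) through Cyp27a1 at 254 ± 10.3, Cyp7b1 at 174 ± 109, Baat at 165 ± 3.54 and Cyp8b1 at 119 ± 37.4 to Cyp7a1 at 61.1 ± 10.4. Akr1d1, Acox2, Amacr and Hsd3b7 followed, between 53.4 and 49.5, each overlapping its neighbour, and Cyp7a1 overlapped Akr1d1. Cyp27a1 overlapped Cyp7b1, and Cyp7b1 overlapped Baat. After IL-1β Cyp7a1 was last in every kit, at 1.5 ± 0.997 (Pico), 0.423 ± 0.122 (V4) and 1.15 ± 0.534 (TruSeq; SD, n = 3 each), and did not overlap the next gene up. In saline V4 libraries it was already last, at 22.2 ± 2.94, and overlapped Akr1d1 at 25.7 ± 2.13. In saline Pico and TruSeq libraries it stood 6th of 10. The level of Hsd3b7 was divided by an exon length of 6154 bases, which includes those shared with Setd1a.
Some levels differed widely between kits. In saline mice Cyp7a1 stood at 308.5 ± 60.2 CPM in Pico and 255 ± 43.6 in TruSeq but at 92.7 ± 12.3 in V4, and Akr1d1 at 146 ± 37.7 and 156 ± 36.1 but 75.0 ± 6.2 in V4. Cyp8b1 went the other way, at 157 ± 51.3 CPM in Pico, 232 ± 73.0 in TruSeq and 504 ± 165 in V4. Cyp27a1 was closest between kits, at 362 ± 19.1, 481 ± 19.5 and 486 ± 44.5 CPM. In the saline ratios this made Cyp8b1 more abundant per length than Cyp7b1 in all 3 V4 mice (1.34 to 3.43) but in 1 of 3 mice in Pico and TruSeq. The differences in level between kits were not tested.

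Whether a member responded differently between kits was tested as the interaction of kit and treatment, in limma-voom over both kits of a pair. The main fit took the libraries as independent, although each mouse was in both kits. Here and in the levels above, kit cannot be told apart from sequencing run, read length and RNA input. Reads were 125 bases long in TruSeq and 150 in Pico and V4, and TruSeq was run on another sequencer model. No member was called in any pair, and neither was any other gene (0% of 17207 for Pico and TruSeq, 0% of 17147 for V4 and TruSeq, 0% of 16395 for Pico and V4). Unadjusted p was under 0.05 for 945, 1090 and 900 genes, of which 0 were members. The furthest apart was Akr1d1 between V4 and TruSeq, whose log2 fold changes differed by 0.47 (95% interval -0.15 to 1.10, adjusted p = 0.899). For Cyp7a1 the intervals were wide, at -1.48 to 1.29 for Pico and TruSeq, -1.12 to 1.37 for V4 and TruSeq and -1.77 to 1.33 for Pico and V4. For Cyp27a1 they were narrower, at -0.28 to 0.20, -0.36 to 0.26 and -0.34 to 0.36. DESeq2 and edgeR called 0 members as well. So did limma-voom with a term for each mouse, which removes what the mouse brings to both kits. With that term, 1 of 17207 genes was called for Pico and TruSeq, and 0 in the other pairs. The intervals for Cyp7a1 were then -0.61 to 0.80, -0.89 to 0.99 and -1.28 to 1.34, in the same order of pairs. Those for Cyp27a1 were -0.20 to 0.12, -0.28 to 0.18 and -0.28 to 0.29. In this limma-voom fit Cyp8b1 in V4 and TruSeq had a difference of 0.33 (unadjusted p = 0.0226, adjusted p = 0.59) and Akr1d1 in Pico and TruSeq 0.31 (unadjusted p = 0.0276, adjusted p = 0.659).

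Since each mouse was sequenced 3 times, spread between mice could be told from spread between libraries. The paper states that extracted samples were aliquoted for the runs, so a mouse cannot be told apart from its RNA extract. Among saline mice the same mouse was highest in all 3 kits for 4 of 10 members: UNT_9574 for Cyp8b1, Cyp7b1 and Amacr, and UNT_9576 for Cyp7a1. Among IL-1β mice this held for 7 of 10. The corresponding shares over 8960 genes with a mean count of at least 20 in every kit were 24.8% and 21.8%. The whole order of the mice repeated for Cyp8b1, Cyp7b1 and Amacr in saline and for Cyp7b1, Hsd3b7, Akr1d1 and Slc27a5 after IL-1β, beside 8.91% and 9.15% of genes. For Cyp8b1 the saline mouse UNT_9574 had 1.997, 1.999 and 1.94 times the CPM of mouse UNT_9575 in Pico, V4 and TruSeq.

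**Figure D4:**
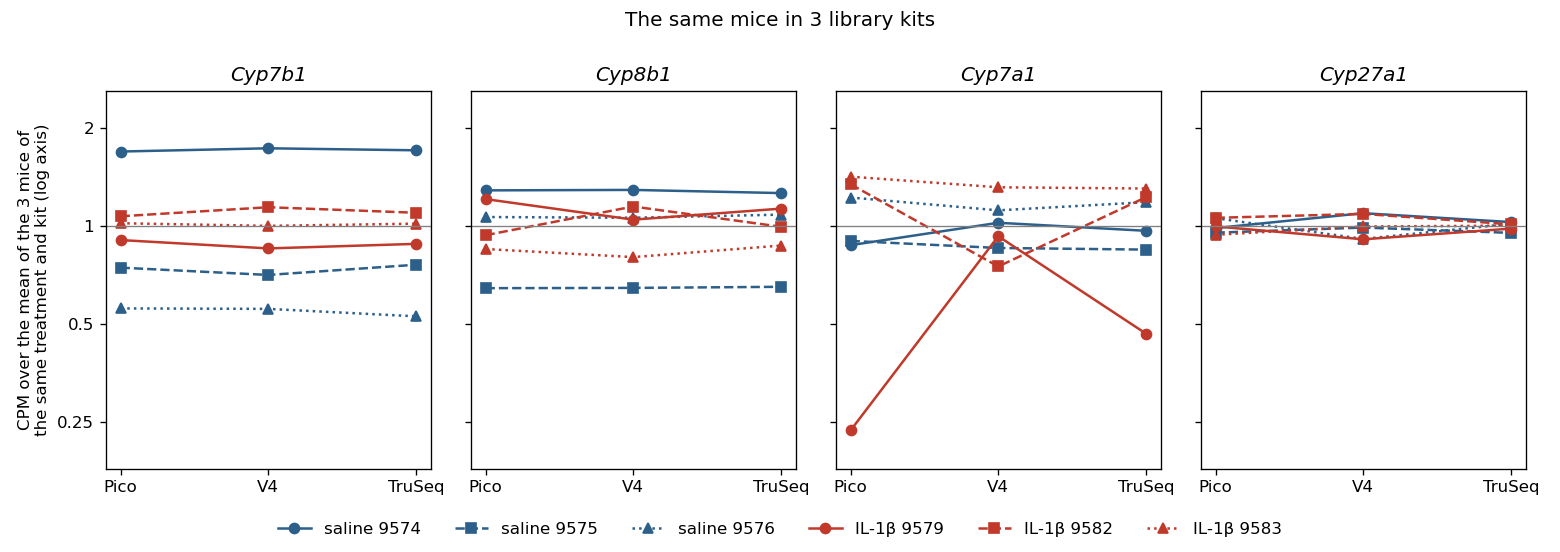
CPM of 4 enzymes in each mouse, divided by the mean of the 3 mice with the same treatment and kit (log axis), by kit, with saline in blue and IL-1β in red. Lines for Cyp7b1 in saline are nearly flat and keep their order, with mouse UNT_9574 on top and UNT_9576 at the bottom, while Cyp7a1 after IL-1β changes order between kits.

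The genes whose pattern was most like that of Cyp7b1, by Pearson correlation of log2 CPM centred within each kit over 18 libraries and among 8959 genes, were Rarres1 (0.95), a retinoic acid receptor responder gene, and the major urinary protein genes Mup1 (0.94), Mup14 (0.94), Mup7 (0.92) and Mup15 (0.90). In TruSeq, Mup1 had 15570 counts in mouse UNT_9574 against 6844 and 6015 in the other saline mice and 5432 to 7026 after IL-1β. Rarres1 had 763 against 387 and 300, and 394 to 470. Thus mouse UNT_9574 stood above the other 5 for these genes as it did for Cyp7b1. The Mup genes are near-identical copies, so reads could be split between them, and their separate counts are uncertain. Spearman correlation picked 4 of the same 5 genes. The 18 points come from 6 mice, and 3 of them from mouse UNT_9574.

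The genes most like Cyp7a1 by the same measure were Upp2 (0.99), a uridine phosphorylase, Aldh8a1 (0.99), an aldehyde dehydrogenase, Ptprb (0.99), an endothelial phosphatase, Tprkb (0.98) and Pdk2 (0.98), a pyruvate dehydrogenase kinase. Each separated the treatments widely, with 452 to 1100 counts of Upp2 in the IL-1β TruSeq libraries and 6868 to 8019 in saline. Spearman correlation picked 0 of these 5, so this list depends on the measure. Values were centred within each kit but not within each treatment, and Cyp7a1 differed widely between treatments. Its correlations therefore largely restate each gene's response to IL-1β and cannot show a link apart from treatment. As for Cyp7b1, libraries of the same mouse are not independent points. The share of all genes with such values is not given. Among the members, Amacr (0.94), Slc27a5 (0.92), Cyp8b1 (0.90), Akr1d1 (0.85) and Hsd3b7 (0.85) had high values with Cyp7a1. Cyp27a1 (-0.02) and Cyp7b1 (0.11) did not, and Baat ran against it (-0.90). By Spearman correlation the same members stood at 0.74, 0.84, 0.70, 0.67 and 0.62, with Slc27a5 the closest, and Baat at -0.80.

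Beyond the 10 members, 17 other enzymes, carriers and sterol transfer proteins of bile acid synthesis were examined, all of them listed. Pico called 11 of them lower and 0 higher, V4 8 lower and 1 higher, and TruSeq 12 lower and 1 higher. Over all genes the shares lower were 10.8%, 7.41% and 21.8%, and those higher 6.78%, 3.6% and 12.3%. With 1 mouse left out at a time, the calls in V4 dropped from 9 to between 3 and 4 without mouse ILB_9579, ILB_9582, ILB_9583, UNT_9574 or UNT_9575, and TMM factors left 4. Stard5, which carries cholesterol, had log2 fold changes of -1.66, -1.90 and -1.65 in Pico, V4 and TruSeq, with 421 to 888 counts against 2279 to 2329 in V4. Cyp39a1, the 24-hydroxycholesterol 7α-hydroxylase of a minor route, stood at -0.87, -2.81 and -1.14, though from only 104 to 140 saline counts in Pico. Smaller changes were seen in 4 genes of the peroxisomal side-chain steps: Abcd3, a transporter of the peroxisome membrane, had log2 fold changes of -0.67, -0.80 and -0.91, Slc27a2, an acyl-CoA synthetase, of -0.65, -0.81 and -0.74, Hsd17b4, the bifunctional enzyme after ACOX2, of -0.50, -0.65 and -0.53, and Scp2, the thiolase, of -0.27, -0.40 and -0.41. Of the other genes of these steps in the list, Acot8 and Acnat2 were called in no kit, and Acnat1 was lower in Pico and TruSeq and missed the threshold in V4. Akr1c6 (-0.43, -0.44 and -0.62) and Cyp3a11 (-0.36, -0.59 and -0.62), a bile acid and drug hydroxylase, completed the 8 genes that were called lower without overlap in all 3 kits, as were 5.27% of all genes. Stard5 and Slc27a2 kept their calls in every kit in 14 of 14 alternative analyses. Scp2 kept its call in 4 (Pico), 5 (V4) and 9 (TruSeq) of 14, and stood at -0.14 in Pico with TMM factors (adjusted p = 0.248). In 1 limma-voom fit of 18 libraries the Pico calls were lost for Scp2 (adjusted p = 0.137, and 0.108 with the mouse as a replicate block), Cyp3a11 (0.0795 and 0.077) and Cyp39a1 (0.106 and 0.101). Akr1c6 lost its calls in Pico and V4 with edgeR, DESeq2 and TMM factors, and Cyp3a11, Abcd3 and Hsd17b4 held in V4 in 6, 7 and 8 of 14 analyses. Ch25h, the cholesterol 25-hydroxylase, was the 1 gene called higher, in V4 and TruSeq, with 3 to 32 and 6 to 18 counts after IL-1β against 0 and 0 to 2 in saline (named after its values were seen).

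Of 18 regulators of bile acid synthesis, Pico called 10 lower and 2 higher, V4 7 lower and 1 higher, and TruSeq 6 lower and 2 higher. In TruSeq, where 21.8% of all genes were lower and 12.3% higher, these counts lie nearer to the background than in Pico (10.8% and 6.78%) and V4 (7.41% and 3.6%). Nr1i3, the xenobiotic receptor CAR, had log2 fold changes of -3.94, -3.33 and -4.40 in Pico, V4 and TruSeq, with 57 to 68 counts after IL-1β against 771 to 1127 in Pico. Klb, the β-Klotho co-receptor through which intestinal FGF15 represses Cyp7a1, stood at -2.54, -3.15 and -2.86, with 44 to 61 counts against 371 to 424 in TruSeq. Fgfr4, its partner receptor, was lower in Pico (-0.66, adjusted p = 0.0375) and TruSeq (-0.35, adjusted p = 0.0491) and stood at -0.61 (adjusted p = 0.38) in V4, and its calls held in 4 and 3 of 14 alternative analyses.

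The bile acid receptor FXR and its target SHP repress Cyp7a1 and Cyp8b1 when bile acids are high. Only RNA was measured, at 4 h, and the part of any regulator in the fall of the enzymes was not tested. The genes of FXR and SHP were both called lower in all kits: Nr1h4 (FXR) had log2 fold changes of -0.67, -0.59 and -0.50 in Pico, V4 and TruSeq, and Nr0b2 (SHP) of -1.76, -1.30 and -1.28, with 342 to 584 counts against 962 to 1659 in V4. The Nr0b2 call in Pico held in 7 of 14 alternative analyses and was lost in 1 limma-voom fit of 18 libraries (adjusted p = 0.111, and 0.0842 with the mouse as a replicate block), and the Nr1h4 call held in 5 of 14 for V4 and 9 of 14 for TruSeq. Mafg, another repressor under FXR, stood at -0.67, -0.90 and -0.69, and its calls held in 10, 6 and 14 of 14. Nr5a2 (LRH-1), an activator of Cyp7a1 and Cyp8b1, was not called, at -0.14, 0.89 and -0.03, where V4 held only 15 to 59 counts. Jun, the AP-1 subunit activated by inflammatory signalling, rose by 1.57, 2.07 and 1.42, with 204 to 264 counts against 75 to 89 in Pico. Hnf4a, the factor whose motif stands in the Cyp8b1 promoter above, was the other gene called higher, by 0.65 in Pico and 0.91 in TruSeq, and stood at 0.48 (adjusted p = 0.166) in V4 (named after its values were seen).

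Of 15 bile acid and sterol transporters, 14 were listed (Slc51a was not), with 12 lower (Pico), 7 (V4) and 10 (TruSeq), and 0 higher in each, where 10.8%, 7.41% and 21.8% of all genes were lower and 6.78%, 3.6% and 12.3% higher. Slco1a4, an uptake carrier, had log2 fold changes of -1.55, -1.48 and -1.62 in Pico, V4 and TruSeq, and Slco2b1, another, of -1.08, -1.33 and -1.24. Abcc2 (MRP2), which exports conjugates into bile, stood at -1.31, -1.28 and -1.26, with 2514 to 3116 counts after IL-1β against 6189 to 7627 in TruSeq. Abcg8, one part of the sterol exporter into bile, stood at -1.60, -1.19 and -1.66. Abcg8 lost its V4 call without mouse ILB_9579, ILB_9583, UNT_9574 or UNT_9575 (adjusted p from 0.0672 to 0.0809 with limma-voom). These 4 had the widest changes, by the smallest of the 3 kits, of 7 transporters called lower without overlap in all 3 kits. The median log2 fold change of the list was -0.72, -0.81 and -0.79, beside -0.12, -0.22 and -0.17 over all genes.

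**Figure D5:**
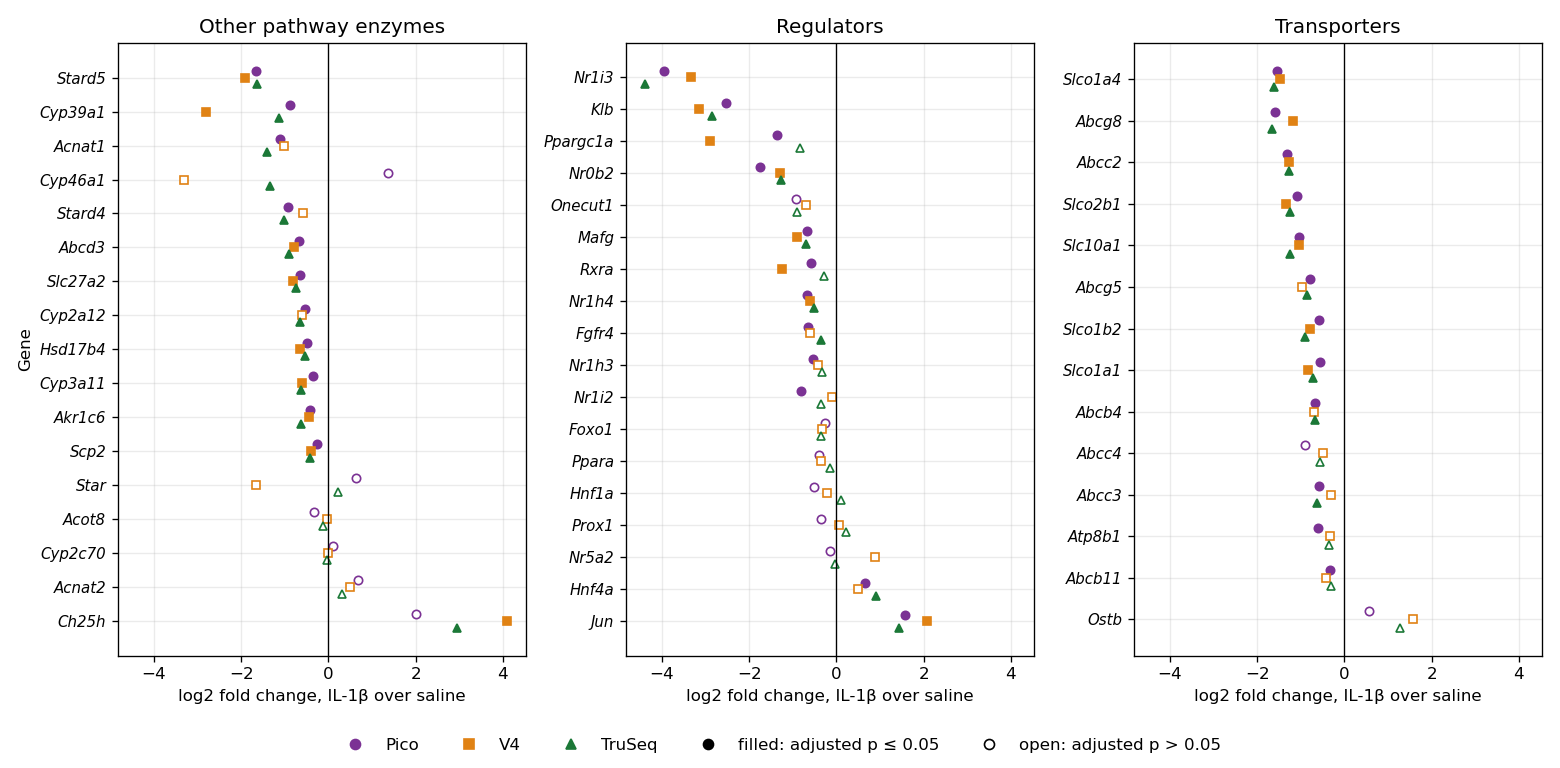
log2 fold change of IL-1β over saline for 17 other pathway enzymes, 18 regulators and the 14 listed transporters, by kit, ordered by the mean of the kits; filled symbols have an adjusted p of at most 0.05. Most filled symbols lie left of 0, and Jun, Hnf4a and Ch25h are the filled symbols on the right.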

How the data were processed

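Liver RNA of 6 mice was sequenced with 3 kits. The authors aligned reads to mm9 with GSNAP, resampled reads within a kit with PORT so that libraries had equal numbers, and deposited whole-number gene counts. Ribosomal reads were removed at a step not given in the sources used here. These were sense counts in Pico and TruSeq and counts of both strands in V4, so reads from an antisense gene cannot be told apart in V4. No molecular identifiers were used, so counts include PCR duplicates, and counting error is a lower limit on the technical error.

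Groups came from the sample labels. Each kit was fitted with limma-voom (limma 3.58.1, R 4.3.3), the test named in the study's methods. Library totals and genes with at least 1 count were chosen here, with Benjamini-Hochberg adjusted p of at most 0.05 called. edgeR 4.0.16 and DESeq2 1.42.0 served as alternatives, with TMM factors, a minimum of 10 counts in 3 libraries, no filter, thinning to 4024632 reads (5 draws), 1 fit of 18 libraries with and without the mouse as a replicate block, other thresholds (0.01 and 0.1) and each mouse left out. A mouse number marks the same mouse in each kit, from the labels: deviations of the same mouse correlated between kits at 0.0597 to 0.427 over 8960 genes, and those of different mice at -0.34 to -0.0212. Deviations from a mean cancel out over the mice, so the negative values follow largely from the positive ones. In V4 the fit of 18 libraries also called Slc27a5 (adjusted p = 0.00134, and 0.000945 with the block) and Baat (0.00565, and 0.00496 with the block). Ratios were tested with exact permutation tests (scipy 1.17.1). The fits were also run on simulated counts, drawn independently with the same dispersion for all genes and without mouse effects. These settings differ from the measured data, and the outcome is not given here.

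All 10 members are named. From the lists of other enzymes, regulators and transporters, the genes named were those called in 1 direction without overlap in all 3 kits, up to 8, 8 and 4 by the smallest of the 3 absolute changes, plus Nr1h4, Nr0b2, Nr5a2, Fgfr4 and Klb. The members and lists were chosen with earlier results of these data known.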

Additional observations from a re-analysis of the deposited data

How the results depend on the processing

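Cyp7a1, Cyp8b1, Akr1d1 and Amacr stayed lower with a call in all 3 kits under each of 14 alternative fits per kit, with adjusted p of at most 0.0487. The members called ranged, with 1 mouse left out, from 6 to 7 in Pico and TruSeq and from 4 to 6 in V4, and 0 were called in the 3 interactions. All 12 ratios kept their direction in 108 alternatives, from -6.45 to -1.03. Of 420 alternative values of members, 25 changed sign, all of Cyp27a1, Cyp7b1 or Acox2, which were never called. With edgeR, DESeq2 and TMM factors, Cyp27a1 was at 0.12, 0.12 and 0.13 in Pico and 0.15, 0.16 and 0.15 in V4, and Acox2 at 0.0451, 0.0527 and 0.0537 in V4 and 0.15, 0.15 and 0.15 in TruSeq. With TMM factors Cyp7b1 was at 0.0985, 0.0173 and 0.00167 in Pico, V4 and TruSeq, and Nr5a2 was at 0.0028 in Pico with edgeR and at 0.11, 0.11 and 0.13 in TruSeq with the 3 tools. Leaving out 1 mouse gave Cyp27a1 from -0.0497 to 0.0367 in Pico and -0.0802 to 0.0525 in V4, Cyp7b1 from -0.37 to 0.43, -0.49 to 0.33 and -0.53 to 0.32, Acox2 from -0.0849 to 0.099 in TruSeq and Nr5a2 from -0.2015 to 0.0746 in TruSeq.

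The lists were less stable in V4 and the regulators in Pico. The other enzymes in V4 had 4 calls with edgeR, 4 with TMM factors, 3 at a threshold of 0.01 and 3 to 9 with 1 mouse left out. The regulators in V4 had 3 at 0.01 and 3 to 7 with 1 mouse left out (3 without mouse ILB_9583 or UNT_9575, 5 without ILB_9579), and those in Pico had 7 in 1 fit of all 18 libraries and 7 to 10 with 1 mouse left out (7 without ILB_9579 or ILB_9583). The transporters in V4 had 4 at 0.01 and 4 to 9 with 1 mouse left out (4 without ILB_9583, UNT_9574 or UNT_9575). Elsewhere the ranges with 1 mouse left out were 8 to 10 (other enzymes, Pico), 9 to 11 (transporters, Pico and TruSeq), 12 to 13 (other enzymes, TruSeq) and 6 to 10 (regulators, TruSeq). Slc27a5 and Baat in V4 were gained in the fit of 18 libraries with or without the mouse as a replicate block, and the block itself changed no call of a member.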
